A study of Mus musculus with 9 samples.

Results

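The 36 interferon-stimulated genes described here are genes whose transcription rises when a cell receives an interferon signal, chosen by their symbols in the gene list of a single-cell RNA-sequencing series. Of the 36 members, 34 had a row among the 32285 mouse genes, while Mx1 and Mx2 had none and carry no value. The series held droplet libraries (10x Genomics 5' gene expression) from 5 mice with EP ZFTA-RELA tumors, an ependymoma model, and from 4 control mice, 1 library per mouse. The tumor mice carried the genotype NestinCreERT2;Fus1 and the control mice NestinCreERT2;TdT, so both groups shared the NestinCreERT2 allele, a Cre driven from the Nestin gene in neural stem and progenitor cells. In the tumor mice this Cre switches on a conditional ZFTA-RELA fusion allele in embryonic radial glia, per the study. Animals were age-matched at 6 to 8 weeks, tumor or brain tissue was dissociated, passed through Percoll, stained with DAPI and an antibody to the red-cell marker Ter119 and sorted. The labels name no shared cultures or litters, and p-values measure the spread between these mice.

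Interferons are secreted proteins that cells release on sensing foreign or misplaced nucleic acids, and immune cells also release interferon gamma on activation. Type I interferons bind the receptor of Ifnar1 and Ifnar2, whose kinases Jak1 and Tyk2 phosphorylate Stat2. Stat2 joins Irf9 in a complex that binds the interferon-stimulated response element (ISRE) in the promoters of interferon-stimulated genes. Interferon gamma has a receptor of its own, of Ifngr1 and Ifngr2. The products sense nucleic acids, tag proteins with Isg15, block viral entry and release, or feed back on the signal. In brain, microglia and endothelium are known to respond to interferon.

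Barcodes were kept by gene number, mitochondrial share and doublet score, which left 36321 cells, with 4023 to 6365 per control and 1721 to 5121 per tumor library. Library totals ranged from 14967680 to 178086164 UMIs (unique molecular identifiers, 1 per captured transcript) and were larger in every control than in every tumor. Transgene UMIs (fusion or luciferase rows) were absent from the kept cells of all 4 controls and present in 78, 896, 97, 3723 and 1054 kept cells of the 5 tumors, which matches the labels. Libraries of a group differed beyond counting noise, and any pair of the 8 libraries other than control replicate 4 shared at most 9 cell barcodes. Control replicate 4, whose barcode list held 80865 entries for 80887 matrix columns, was not compared in this way. Levels are UMIs per 1000000 UMIs of the summed cells of a mouse (CPM), given for single mice in the order of replicates 1 to 4 for controls and 1 to 5 for tumors.

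Cells were assigned to a class by the number of class markers detected above free RNA (RNA outside cells that enters every droplet), and a class was compared in mice with at least 20 such cells. This gave 94 to 148 microglia-like cells per control and 209 to 490 per tumor, and 26 to 29 against 120 to 177 endothelial-like cells. Free RNA was read from the 3000 barcodes with the fewest UMIs of each library, which held a median of 559 to 1338 UMIs and were not shown to be empty. In tumor replicate 3, which had 9001 barcodes in all, they were also among the barcodes screened for cells. From the neuron markers, free RNA was estimated to make up 54.97 to 66.1% of the UMIs of microglia-like cells in controls and 5.38 to 24.4% in tumors. The summed level of the members in free RNA was 305, 319.8, 196 and 199 CPM in the controls and 636, 1235, 829.7, 2495 and 628 CPM in the tumors. It was higher in every tumor than in every control and highest in tumor replicate 4, and free RNA levels of the same libraries are given beside several of the results within a class.

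Over all kept cells, interferon-stimulated genes were higher in EP ZFTA-RELA tumors than in control brains almost throughout. The summed level of the 34 members was 295, 331, 237 and 206 CPM in controls and 1313, 2327, 1524, 2604 and 961 CPM in tumors, without overlap. All 34 passed the filter on low counts, and 31 were higher in tumors at an adjusted p under 0.05 by edgeR's quasi-likelihood test, against 61.6% of all 17599 genes tested that were called in either direction and 32.3% called higher. None was lower. Stat2, Cmpk2 and Herc6 were the 3 that did not pass. The median log2 fold change was 2.85 over the members and 0.04 over all genes tested. Since these sums pool every cell of a library, a change in the number of cells of a type and a change in RNA per cell cannot be told apart in them.

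**Figure D1:**
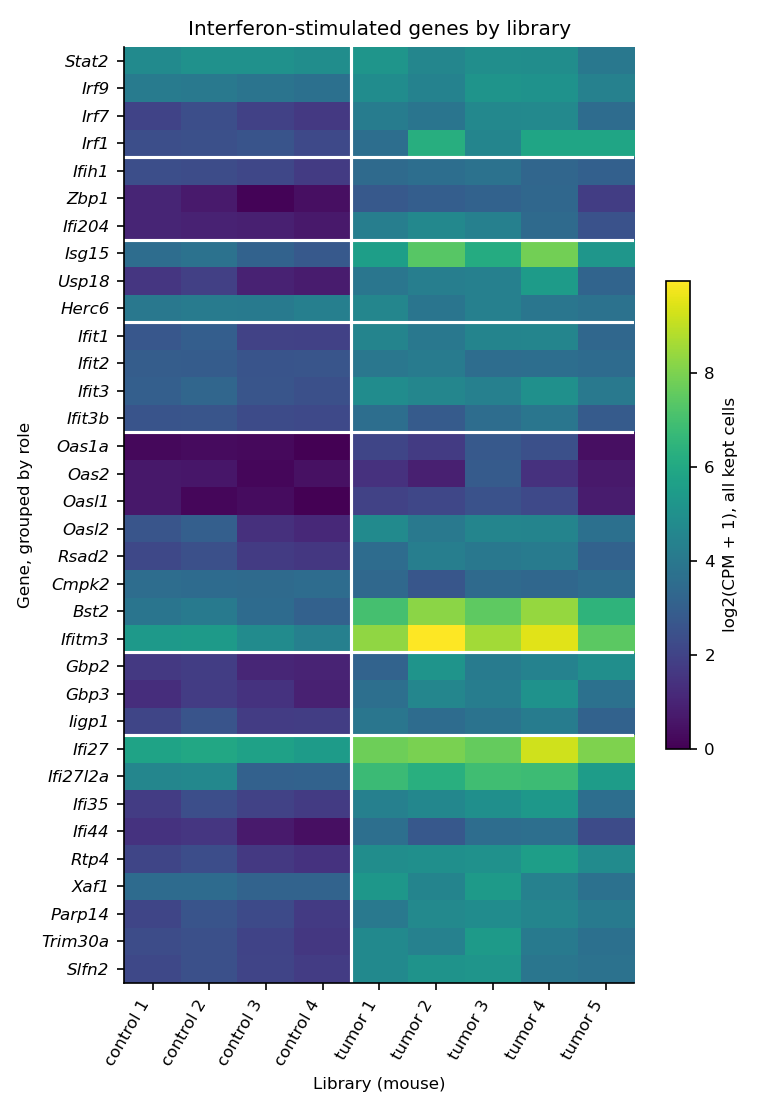
Level of each of the 34 interferon-stimulated genes (rows, grouped by role) in all kept cells of each of 9 mice (columns), as log2 of CPM plus 1, from dark blue for low to yellow for high levels. In 31 rows every tumor lies above every control, the exceptions being Stat2, Cmpk2 and Herc6.

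Among the signaling factors, 3 of 4 rose. Irf7, the factor that amplifies type I interferon transcription, had 3.05, 4.23, 2.78 and 2.12 CPM in controls and 17.3, 13.6, 24.3, 24.8 and 10.6 CPM in tumors. The groups did not overlap, and the log2 fold change was 2.82 ± 0.34 (SE, adjusted p = 0.000258). Irf1, a factor induced by interferon gamma, rose by 3.73 ± 0.63 (log2, SE) and Irf9, the DNA-binding subunit of the complex named above, by 1.17 ± 0.22. Stat2, which joins Irf9 in that complex, had 26.1, 32.2, 31.6 and 28.8 CPM in controls and 35.6, 22.99, 29.5, 28.4 and 14.7 CPM in tumors. Its groups overlapped, tumor replicate 5 was lowest, and its log2 fold change of 0.05 ± 0.22 (SE, adjusted p = 0.840) did not pass the test, with an interval of -0.37 to 0.48 (95%, normal).

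All 3 nucleic acid sensors rose. Ifi204, a DNA-binding protein of the PYHIN family, had 1.02, 0.930, 0.820 and 0.599 CPM in controls and 18.1, 23.99, 19.3, 9.99 and 4.66 CPM in tumors. Every tumor lay above every control, with tumor replicate 5 nearest to them, and the log2 fold change was 4.41 ± 0.51 (SE, adjusted p = 0.000216). Zbp1, a sensor of Z-form nucleic acid, rose by 3.92 ± 0.67 and Ifih1, the double-stranded RNA sensor MDA5, by 1.74 ± 0.27 on the log2 scale.

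Of the genes of ISGylation, the attachment of Isg15 to proteins, 2 of 3 rose. Isg15 itself had 10.8, 12.4, 7.76 and 5.898 CPM in controls and 47.6, 164, 68.5, 226 and 36.4 CPM in tumors. Tumor replicates 2 and 4 stood above the other 3 tumors, no tumor reached down to a control, and the log2 fold change was 3.92 ± 0.69 (SE, adjusted p = 0.00123). Usp18, which removes Isg15 and dampens the type I receptor, rose by 4.02 ± 0.65 (log2, SE). Herc6, the mouse ligase for Isg15, had a log2 fold change of 0.22 ± 0.17 (SE, adjusted p = 0.290), which did not pass. The 4 IFIT genes, whose products bind foreign RNA, lie in a cluster on chromosome 19 (mm10). Each rose, by 1.38 for Ifit2 up to 2.22 for Ifit1 on the log2 scale. Ifit3 and Ifit3b are near-identical copies, so the split of reads between them is uncertain.

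Of the 8 measured direct antiviral effectors, 7 rose. Bst2, or tetherin, which holds budding virus at the cell surface, had 13.5, 16.1, 10.1 and 7.51 CPM in controls and 130.1, 302, 177, 336 and 89.3 CPM in tumors. The lowest tumor, replicate 5, was several fold above the highest control, and the log2 fold change was 4.45 ± 0.55 (SE, adjusted p = 0.000269). Ifitm3, which blocks fusion of virus with endosomes, had 39.4, 41.6, 27.01 and 19.1 CPM in controls and 321, 999, 381, 726 and 174 CPM in tumors. Here tumor replicates 2 and 4 were highest and replicate 5 lowest, again above each control, with a log2 fold change of 4.37 ± 0.64 (SE, adjusted p = 0.000512). The oligoadenylate synthetases and their relatives rose by 4.66 (Oas1a), 3.95 (Oasl1), 2.58 (Oasl2) and 2.58 (Oas2) on the log2 scale, and Rsad2, or viperin, by 2.44. Controls held few molecules of some of these, 10 UMIs of Oas1a and 15 of Oasl1 over all 4 libraries. Cmpk2, a mitochondrial nucleotide kinase that neighbors Rsad2 on chromosome 12, had 9.78 to 10.9 CPM in controls and 5.33 to 10.4 CPM in tumors, with a log2 fold change of 0.01 ± 0.21 (SE, adjusted p = 0.970).

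All 3 GTPases of intracellular defense rose, the guanylate-binding proteins Gbp2 and Gbp3 by 4.02 and 3.90 and Iigp1 by 2.19 on the log2 scale. The 9 remaining members rose as well. Rtp4, a receptor transporter, had 3.27, 4.14, 2.15 and 1.75 CPM in controls and 28.3, 30.2, 31.7, 47.6 and 26.9 CPM in tumors. Its groups were far apart, tumor replicate 4 being highest, and it had the smallest p of the members with a log2 fold change of 3.82 ± 0.37 (SE, adjusted p = 0.000122). Parp14, an ADP-ribosyltransferase, had 3.197, 4.97, 3.72 and 2.26 CPM in controls and 15.4, 24.5, 27.98, 22.4 and 15.98 CPM in tumors, which gave 2.85 ± 0.33 (SE, adjusted p = 0.000209). Trim30a, of the tripartite motif family, had 3.92, 4.37, 3.03 and 2.03 CPM in controls and 25.4, 19.8, 42.05, 15.6 and 11.9 CPM in tumors, which gave 2.97 ± 0.36 (SE, adjusted p = 0.000263). Both separated the groups in every mouse. Slfn2, of the Schlafen family, had 3.49, 4.37, 3.09 and 2.396 CPM in controls and 25.8, 33.5, 36.1, 14.1 and 12.6 CPM in tumors, which gave 3.10 ± 0.37 (SE, adjusted p = 0.000251). Ifi35 had 2.398, 4.28, 2.903 and 2.35 CPM in controls and 19.5, 23.3, 30.1, 38.99 and 11.004 CPM in tumors, which gave 3.32 ± 0.43 (SE, adjusted p = 0.000312). No tumor overlapped a control in either gene. Ifi27, Ifi27l2a, Ifi44 and Xaf1 rose by 1.72 to 3.10 on the log2 scale. Over the list, every tumor exceeded every control for 31 of 34 members, against 16.4% of all genes with a UMI.

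The cells that held the members' UMIs differed between the groups. Microglia-like cells carried 4.83 to 5.92% of the members' UMIs in controls, where they were 2.33 to 2.47% of kept cells. In tumors they carried 10.1 to 25.9% and were 6.35 to 16.9% of cells. Endothelial-like cells carried 5.13 to 10.2% in controls and 4.96 to 35.5% in tumors. Neuron-like cells carried 30.8 to 36.2% in controls and at most 3.33% in tumors. Cells outside every class carried 30.4 to 47.0% of the members' UMIs in controls, where they were 43.8 to 54.5% of kept cells. In tumors they carried 16.3 to 67.8% and were 43.6 to 76.0% of cells. Those of tumors that had a transgene UMI carried 1.55 to 57.1% of the members' UMIs. Cells outside every class were not tested between the groups. The make-up of the libraries thus moved with the sums above, and its part in them was not tested, so the classes were compared one by one.

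Sequences upstream of 6 members are shown to compare members with and without a common motif. They are taken from RefSeq (GRCm38.p6, the same coordinates as mm10), are 160 bases long, end at the base before the annotated start and read 5' to 3' on the gene's strand. Capitals mark the core letters of an ISRE, which are GAAA, any 2 bases and GAAA, or the same on the other strand, TTTC, any 2 bases and TTTC, with overlapping matches merged. Isg15, Bst2 and Ifit3 are shown for carrying several matches, Rsad2 for carrying 1 and Irf7 and Ifitm3 for carrying none although they rose.
Isg15 (chr4:156200819-156200978, minus strand): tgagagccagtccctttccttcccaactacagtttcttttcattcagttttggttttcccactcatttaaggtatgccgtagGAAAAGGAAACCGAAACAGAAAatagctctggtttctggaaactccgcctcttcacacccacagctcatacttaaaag
Bst2 (chr8:71537473-71537632, minus strand): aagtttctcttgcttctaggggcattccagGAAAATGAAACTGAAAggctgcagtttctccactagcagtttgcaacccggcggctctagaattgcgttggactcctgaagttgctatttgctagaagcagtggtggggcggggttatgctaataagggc
Ifit3 (chr19:34583369-34583528, plus strand): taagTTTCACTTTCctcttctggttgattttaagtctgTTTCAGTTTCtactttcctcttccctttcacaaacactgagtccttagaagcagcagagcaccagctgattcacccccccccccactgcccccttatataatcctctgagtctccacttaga
Rsad2 (chr12:26456453-26456612, minus strand): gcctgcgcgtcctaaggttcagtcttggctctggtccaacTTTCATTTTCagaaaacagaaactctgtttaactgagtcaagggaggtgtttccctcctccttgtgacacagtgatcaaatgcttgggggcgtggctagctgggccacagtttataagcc
Irf7 (chr7:141266425-141266584, minus strand): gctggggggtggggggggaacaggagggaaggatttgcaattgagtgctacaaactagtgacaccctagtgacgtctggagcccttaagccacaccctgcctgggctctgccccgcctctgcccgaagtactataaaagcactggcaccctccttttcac
Ifitm3 (chr7:141010745-141010904, minus strand): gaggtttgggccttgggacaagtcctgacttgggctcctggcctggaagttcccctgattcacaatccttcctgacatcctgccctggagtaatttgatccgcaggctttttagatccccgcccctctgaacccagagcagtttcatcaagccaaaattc
Isg15 held 3 overlapping matches that began 66 to 78 bases before the start, Bst2 held 2 that began 124 and 130 bases before it, Ifit3 held 2 at 122 and 156 bases and Rsad2 held 1 at 120 bases. In the 250 bases before the start, 11 of the 25 members with an entry (44.0%) held the letters, and so did 936 of all 27025 genes (3.46%). Those 11 were Isg15, Bst2, Rsad2, Ifit1, Ifit3, Ifit3b, Oas1a, Gbp2, Gbp3, Trim30a and Stat2. Gbp3 and Trim30a were counted although another annotated start of each held no match. Stat2 held 1 match and did not rise over all cells, while Irf7 and Ifitm3 held none in this window and did. A match is a description of the letters and not a mapped binding site, and the absence of these letters says nothing of other sites. No entry was found for Oas2, Ifi204, Ifi27l2a, Zbp1, Rtp4, Usp18, Parp14, Ifi27, Iigp1, Mx1 and Mx2.

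In microglia-like cells, the resident phagocytes of the brain, Bst2, Ifitm3, Ifi27l2a, Isg15 and Ifi204 were higher in tumors. Of the 34 members, 22 passed the filter and 16 were called higher, against 41.8% of all 8037 genes tested called in either direction and 19.2% called higher. None was lower. Of the 22, 15 reached the level of the filter in fewer than the 4 control libraries and needed tumor libraries to pass, 2 of them (Irf7 and Irf1) in no control. The count thus depends in part on the filter. The median log2 fold change was 1.80 over the tested members and -0.02 over all genes. The summed level of the list was 832, 794, 554 and 465 CPM in control and 2261, 2549, 1584, 4755 and 1605 CPM in tumor microglia-like cells. Every tumor lay above every control, and tumor replicate 4 was highest. Without the filter, 24 of 34 members were called higher, against 12.2% of genes. Fold changes rest on TMM scaling, which sets most genes level. Scaled by UMI totals instead, an alternative added after the data were seen, the median of all genes moved from -0.02 to -0.43 (log2), the genes called went from 1541 higher and 1818 lower to 836 higher and 2874 lower, and 11 members were called, all higher, with Usp18, Ifit2, Ifit3, Parp14 and Xaf1 no longer among them.

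These cells were checked against their markers. All 10 phagocyte markers (C1qa, Csf1r, Tyrobp and others) and all 10 microglia markers (P2ry12, Tmem119, Sall1 and others) had UMIs in every library. Their summed level was 12556 to 16352 CPM in controls and 39335 to 44969.5 CPM in tumors for the phagocyte list, and 9720.0 to 12489.9 against 6343 to 16271 CPM for the microglia list. Macrophage markers summed to 62.4 to 208 CPM in controls, where 4 to 7 of 10 had a UMI, and to 705 to 8456 CPM in tumors, where 6 to 9 had one. Neuron markers ran the other way, at 4086 to 5169 CPM in controls and 88.3 to 1211 CPM in tumors. Values after subtraction of free RNA are given beside some of the genes, and the part of the other marker differences in the fold changes was not tested.

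Among the signaling factors, Irf7 had 3.47, 14.2, 3.06 and 6.22 CPM in control and 29.03, 25.4, 14.3, 83.5 and 24.2 CPM in tumor microglia-like cells, and 9.12, 9.87, 9.51, 45.4 and 7.75 CPM in the free RNA of the tumors. The groups nearly met, at 14.24 CPM (7 UMIs) in control replicate 2 and 14.28 CPM (25 UMIs) in tumor replicate 3. The tumor cells lay above their free RNA in all 5 libraries. Irf7 and Irf1 reached the level of the filter in no control and passed it only through the tumors, and no fold is given for them. Neither was called after free RNA was subtracted. Stat2 had 17.3, 18.3, 9.18 and 22.8 CPM in controls and 30.7, 28.1, 15.99, 25.4 and 12.1 CPM in tumors, overlapping, with a log2 fold change of 0.78 ± 0.39 (SE, adjusted p = 0.124). For Irf9 it was 0.40 ± 0.26 (SE, adjusted p = 0.235), and -0.01 under UMI totals.

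Of the sensors, Ifi204 had 24.3, 12.2, 3.06 and 8.299 CPM in control and 123, 108, 48.5, 109 and 37.98 CPM in tumor microglia-like cells. The free RNA of the tumors held 2.85, 6.23, 2.97, 16.3 and 0 CPM, below the cells in each library. The groups did not overlap, and the log2 fold change was 3.30 ± 0.54 (SE, adjusted p = 0.00049), or 2.52 ± 0.58 (adjusted p = 0.00651) after subtraction. Ifih1 had a log2 fold change of 0.73 ± 0.32 (SE, adjusted p = 0.0871) and did not pass. Zbp1 was too low to be tested, with 3 UMIs in all control microglia-like cells and 194 in those of tumors. Every tumor level of Zbp1 was still above every control level.

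Of the ISGylation genes, Isg15 had 20.8, 16.3, 9.18 and 4.15 CPM in control and 58.1, 67.7, 39.4, 177 and 52.5 CPM in tumor microglia-like cells. The free RNA of the tumors held 25.7, 82.6, 37.4, 204 and 19.9 CPM of it, above the cells in tumor replicates 2 and 4, where free RNA made up an estimated 14.7 and 14.96% of UMIs. Control and tumor levels did not overlap, with a log2 fold change of 3.17 ± 0.62 (SE, adjusted p = 0.00148) and of 2.96 ± 0.67 (adjusted p = 0.00612) after subtraction. Usp18 rose by 2.58 ± 0.83 (adjusted p = 0.0247), on 6 control UMIs, and was lost when control replicate 2, 3 or 4 was left out. Herc6 had a log2 fold change of 0.36 ± 0.37 (SE, adjusted p = 0.455), which turned to -0.04 under UMI totals. Ifit3 and Ifit2 were the 2 IFIT genes tested and rose by 1.93 and 1.60 (adjusted p = 0.0166 and 0.0402). Both calls were lost after subtraction of free RNA.

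Bst2 was the member with the smallest p in microglia-like cells. It had 69.3, 67.1, 82.6 and 58.1 CPM in controls and 304, 899, 343, 1444 and 293 CPM in tumors, against 57.03, 117, 80.8, 292 and 52.6 CPM in the free RNA of the tumors. The groups were far apart, tumor replicates 2 and 4 were highest, and every tumor exceeded its free RNA more than 2 times. The log2 fold change was 3.74 ± 0.59 (SE, adjusted p = 0.000407) and 3.12 ± 0.59 (adjusted p = 0.00223) after subtraction. Ifitm3 had 45.1, 71.2, 21.4 and 20.7 CPM in controls and 256, 329.8, 156, 614 and 133 CPM in tumors, with 127, 433, 170.0, 535 and 105 CPM in free RNA of the tumors. No tumor overlapped a control, but the tumor cells of replicates 2 and 3 lay below their free RNA. The log2 fold change was 3.36 ± 0.57 (SE, adjusted p = 0.000649), and 3.61 ± 0.70 (adjusted p = 0.00286) after subtraction. Oasl2 had 1.31 ± 0.57 (SE, adjusted p = 0.0853) and did not pass. Cmpk2 ran against the rest without being tested, since its 1.62 to 9.12 CPM in tumors lay below its 10.4 to 15.3 CPM in controls in every mouse, and below free RNA in every tumor. The free RNA of the controls held 14.5, 11.0, 12.1 and 12.2 CPM of it, near the level of their cells.

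Of the remaining 9 members, 8 were tested and 7 rose. Ifi27l2a, a small protein of the Ifi27 family, had 58.9, 87.5, 24.5 and 8.299 CPM in controls and 422, 349, 179, 1092 and 348 CPM in tumors. Tumor replicate 4 was highest and all 5 tumors exceeded their free RNA more than 2 times, with a log2 fold change of 3.88 ± 0.69 (SE, adjusted p = 0.000838), or 3.59 ± 0.82 (adjusted p = 0.00670) after subtraction. Slfn2 had 69.3, 32.6, 33.7 and 31.1 CPM in controls and 123, 145, 62.8, 97.9 and 93.7 CPM in tumors. Control replicate 1 overlapped the tumors, and the log2 fold change was 1.79 ± 0.33 (SE, adjusted p = 0.00106), or 1.07 ± 0.38 (adjusted p = 0.0472) after subtraction. Ifi35 had 10.4, 22.4, 21.4 and 6.22 CPM in controls and 47.8, 33.4, 42.8, 76.3 and 46.1 CPM in tumors, without overlap and with 2.13 ± 0.41 (SE, adjusted p = 0.00129), or 1.48 ± 0.48 (adjusted p = 0.0319) after subtraction. Rtp4 had 17.3, 8.14, 6.12 and 8.299 CPM in controls and 73.4, 27.7, 29.1, 36.5 and 21.8 CPM in tumors, where replicate 1 was highest, with 2.30 ± 0.45 (SE, adjusted p = 0.00141), or 1.74 ± 0.52 (adjusted p = 0.0239) after subtraction. Ifi27, related to Ifi27l2a, had 72.8, 87.5, 73.4 and 76.8 CPM in controls and 152, 106, 195, 252 and 126.05 CPM in tumors. These did not overlap (log2 1.52 ± 0.29 SE, adjusted p = 0.00126), yet 3 of the 5 tumors lay below the 109 to 424 CPM of their own free RNA. After subtraction Ifi27 had 1.59 ± 0.33 (adjusted p = 0.00421). Parp14 and Xaf1 rose by 1.03 and 0.87 and lost the call after subtraction, and Trim30a had 0.69 ± 0.27 (SE, adjusted p = 0.0605).

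After subtraction of free RNA, a test added after the data were seen, 9 of the 21 members tested were called, all higher, against 20% of all 6163 genes tested called higher in the same fit. They were Bst2, Ifitm3, Ifi27l2a, Isg15, Ifi204, Rtp4, Ifi27, Ifi35 and Slfn2. No GTPase passed the filter. Tumor replicates 2 and 4 had the most microglia-like cells, and 12 members were called without either of them, where 38% and 39.8% of all genes were called.

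**Figure D2:**
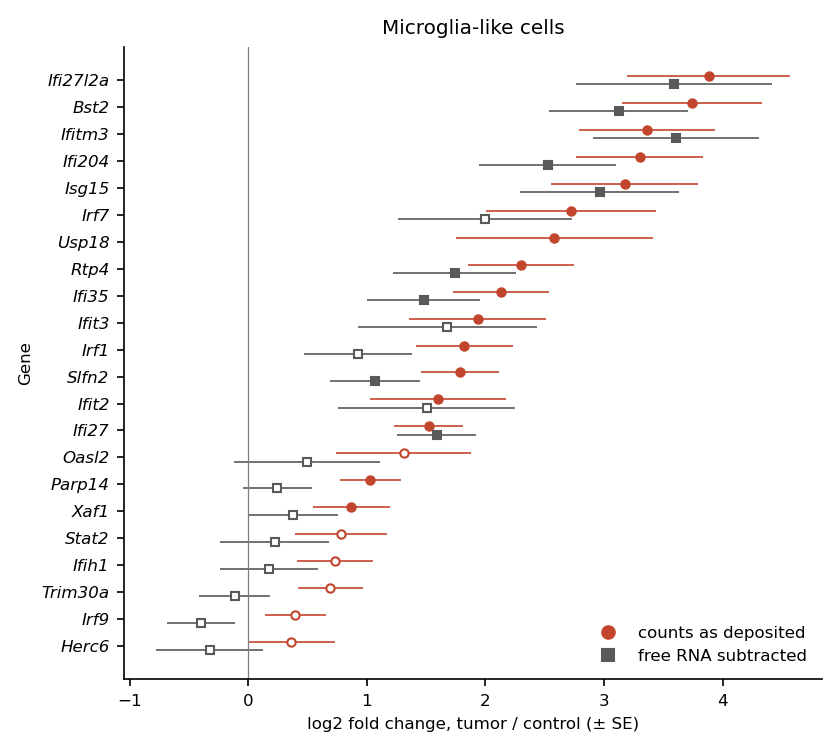
Log2 fold change (tumor against control, microglia-like cells) of each tested member from the counts as deposited and after free RNA was subtracted, with bars of 1 SE and filled symbols where the adjusted p is under 0.05. Bst2, Ifitm3, Ifi27l2a and Isg15 lie near 3 or above on both, while Trim30a, Irf9 and Herc6 go from above 0 to below 0.

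The share of microglia-like cells with several members was also compared. Each cell was thinned to 1000 UMIs, which left out none of the 487 control and 1581 tumor cells, and cells with at least 2 members detected were counted. They were 12.2, 9.68, 9.57 and 6.61% of control and 43.1, 50.6, 32.8, 76.6 and 33.7% of tumor microglia-like cells. The lowest tumor lay above the highest control, tumor replicate 4 was highest, and the means were 9.51% ± 2.27 (SD, n = 4) and 47.4% ± 17.9 (SD, n = 5). Unthinned shares were 28.4 to 66.9% and 75.2 to 100.0%. Thinning made the totals equal but not their sources, since free RNA made up an estimated 54.97 to 66.1% of UMIs in control and 5.38 to 24.4% in tumor microglia-like cells, and the part of this in the shares was not tested. In astrocyte-like cells thinned shares were 0 to 6.897% in controls and 14.6 to 71.8% in tumors. In neuron-like cells, which carry the free RNA of the same libraries, thinned shares were 0.667 to 2.64% in controls and 1.68 to 11.8% in tumors. In transgene-bearing cells of the tumors they were 12, 42.4, 8.47, 44.1 and 16.98%, with replicates 2 and 4 above the other 3.

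**Figure D3:**
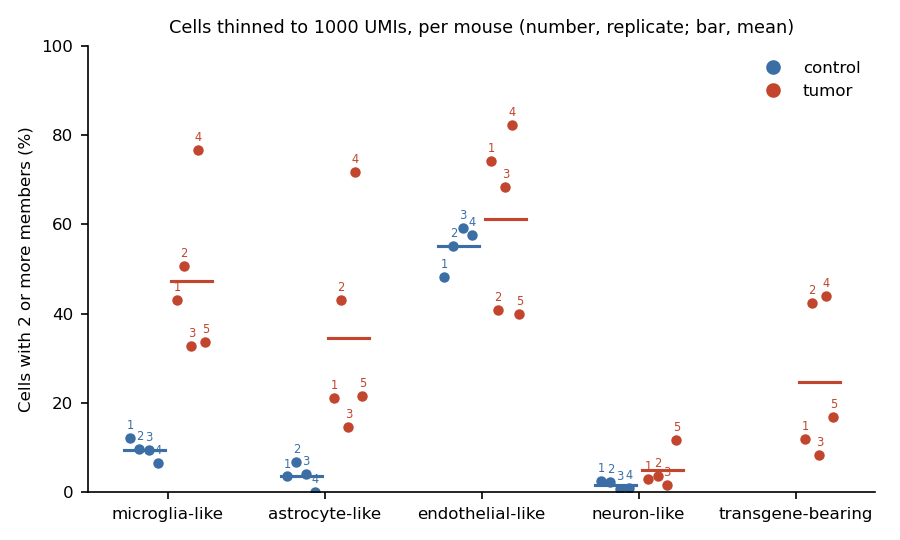
Percent of cells with at least 2 interferon-stimulated genes after each cell was thinned to 1000 UMIs, 1 point per mouse, by cell class, with bars at group means. In microglia-like cells the 5 tumors lie at 32.8 to 76.6% and the 4 controls at 6.61 to 12.2%, whereas control and tumor endothelial-like cells overlap.

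In astrocyte-like cells only 6 members passed the filter, at 39 to 143 cells per tumor and 56 to 96 per control, and 5 of them were higher in tumors, against 33.1% of all 5248 genes tested called in either direction and 16.8% called higher. All of the 6 but Ifi27 lay below the level of the filter, 35.2 CPM, in every control and passed it only through the tumors, so the count was largely set by the filter and nothing is read from it. Ifitm3 had 34.8, 24.8, 33.1 and 17.6 CPM in control and 255, 686, 106, 1387 and 204 CPM in tumor astrocyte-like cells. No tumor overlapped a control, replicate 4 was highest, and all tumors but replicate 3 exceeded their free RNA; the log2 fold change was 4.27 ± 0.68 (SE, adjusted p = 0.000176). Bst2 had 0, 16.5, 0 and 3.52 CPM in controls, 5 UMIs in all, and 101, 178, 40.2, 528 and 166 CPM in tumors, a log2 fold change of 5.24 ± 0.85 (SE, adjusted p = 0.0002). All tumors but replicate 3 exceeded their free RNA here too. Ifi27 had 52.2, 90.9, 78.996 and 52.8 CPM in controls and 314, 435, 195, 1088 and 318 CPM in tumors, each tumor above its free RNA, a log2 fold change of 2.75 ± 0.45 (SE, adjusted p = 0.000198). These 3 separated the groups and kept their calls after subtraction of free RNA and in edgeR's test without the filter. Ifitm3 and Bst2 lay below the level of the filter in every control, so no size is read from their folds.

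Herc6 had 17.4, 12.4, 12.7 and 21.1 CPM in control and 59.3, 72.5, 34.5, 36.8 and 35.96 CPM in tumor astrocyte-like cells. Every tumor was above every control, and the log2 fold change was 1.57 ± 0.41 (SE, adjusted p = 0.00749). All 4 controls lay below the level of the filter, so no size is read from this fold. Without the filter the adjusted p was 0.00539 by edgeR's test. Herc6 fell short of the filter, and was not tested, after subtraction of free RNA, with the stricter gate, with the mitochondrial limit of 10% and without control replicate 3 or tumor replicate 1, 3 or 5. Irf9 had 17.4, 4.13, 20.4 and 10.6 CPM in controls and 38.5, 46.2, 43.1, 49.1 and 19.98 CPM in tumors. It too passed the filter only through the tumors, and its call was lost without control replicate 2 or 4. Stat2 had 8.703, 20.7, 12.7 and 24.6 CPM in controls and 38.5, 72.5, 66.1, 36.8 and 11.99 CPM in tumors, where only replicate 5 overlapped the controls (log2 1.27 ± 0.51 SE, adjusted p = 0.0663). Isg15 and Irf7 fell short of the filter, with 29.6, 198, 17.2, 209 and 23.97 and 8.89, 32.96, 14.4, 20.5 and 7.99 CPM in tumors on 10 and 2 UMIs in controls. Every tumor was above every control for 12 of 34 members, against 4.96% of genes. Free RNA made up 56.6 to 67.9% of UMIs in control and 20.8 to 49.5% in tumor astrocyte-like cells. Astrocyte markers summed to 12175 to 13273 CPM in controls and 16638 to 29070 CPM in tumors, and neuron markers to 4210 to 5309 and 196 to 1686 CPM. Markers of oligodendrocyte precursors summed to 599 to 662 and 683 to 2011 CPM, and ependymal markers to 28.9 to 40.8 and 90.0 to 243 CPM. The part of these differences in the levels was not tested. Cells with a transgene UMI were not removed from any class, so tumor astrocyte-like cells can include some.

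Endothelial-like cells differed from these classes in that control cells already held most members well above free RNA. In every control, 25 of 34 members exceeded free RNA more than 2 times, compared with 10 in microglia-like and 2 in astrocyte-like cells. Some of these levels rest on few molecules. Irf1, Herc6 and Trim30a had 1 UMI each in control replicate 1, as had Ifih1 and Ifi44 in control replicate 4. In every tumor, where free RNA held more of the members, 3 exceeded it more than 2 times, which were Ifitm3, Xaf1 and Iigp1. The summed level was 3048, 3184, 2678 and 1816 CPM in control and 4662, 2113, 4739, 5390.3 and 1764 CPM in tumor endothelial-like cells. The groups overlapped, tumor replicates 1, 3 and 4 lying above all controls and replicates 2 and 5 among or below them. Of 28 members tested, 2 were called, both higher, against 25% of all 6808 genes tested called in either direction and 12.9% called higher. At an unadjusted p under 0.05 there were 3. The median log2 fold change was 0.19 over the members and 0.06 over all genes, and no member separated every tumor from every control, against 5.8% of genes. Controls held 26 to 29 such cells each. The endothelial markers summed to 8746 to 11761 CPM in controls and 10877 to 25239.9 CPM in tumors, markers of pericytes or smooth muscle to 2537 to 3153 and 32.3 to 2200.4 CPM, and free RNA made up 46.8 to 68.6% and 9.498 to 27.5% of UMIs. Their part in these values was not tested. Under UMI totals the genes called went from 875 higher and 824 lower to 696 higher and 986 lower, and the 2 members stayed called.

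The genes called were Bst2 and Ifi27. Bst2 had 161, 189, 202 and 65.4 CPM in control and 428, 232, 403, 908 and 165 CPM in tumor endothelial-like cells. The groups overlapped at tumor replicate 5, with a log2 fold change of 1.58 ± 0.48 (SE, adjusted p = 0.0297). Ifi27 had 191, 153, 258 and 145 CPM in controls and 310.0, 241, 308, 437 and 298 CPM in tumors, overlapping at control replicate 3 and tumor replicate 2 (log2 0.89 ± 0.25 SE, adjusted p = 0.0222). Both calls were lost after subtraction of free RNA and without control replicate 1, 2 or 4 or tumor replicate 4, and that of Bst2 also without control replicate 3. Ifitm3 had 1085, 969, 879 and 559 CPM in controls and 1784, 1144, 1754, 1991 and 558 CPM in tumors (log2 0.86 ± 0.35 SE, adjusted p = 0.0850). Isg15 had 103, 284, 202 and 138 CPM in controls and 282, 58.6, 333, 337 and 69.5 CPM in tumors, where replicates 2 and 5 lay below all controls (log2 0.31 ± 0.52 SE, adjusted p = 0.699). Replicate 2 also lay below the 82.6 CPM of Isg15 in its own free RNA, which made up an estimated 19.5% of its UMIs. Irf7 had 43.97, 51.003, 55.8 and 50.9 CPM in controls and 89.9, 18.4, 121, 122 and 38.4 CPM in tumors (log2 0.71 ± 0.53 SE, adjusted p = 0.355), and Stat2 had 58.6, 43.7, 41.8 and 21.8 CPM in controls and 37.9, 23.9, 64.6, 41.5 and 23.8 CPM in tumors (log2 0.07 ± 0.41 SE, adjusted p = 0.931).

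Ifit1 had 99.4, 5.43, 134, 44.1 and 20.1 CPM in the tumors against 73.3, 117, 97.6 and 43.6 CPM in controls, Rsad2 68.6, 5.43, 36.04, 51.01 and 12.8 against 103, 109, 83.7 and 14.5 CPM, and Oasl2 92.3, 13.02, 88.2, 79.5 and 27.4 against 103, 124, 48.8 and 50.9 CPM. Tumor replicates 2 and 5 were the 2 lowest tumors for each of these 3, which were picked after their values were seen. In the transgene-bearing cells of the same tumors Isg15 had 19.8, 223, 14.3, 226 and 45.98 CPM, where replicates 2 and 4 were the highest tumors, while replicate 2 was the lowest in endothelial-like cells.

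Tumor replicate 4 had 4 neuron-like cells and was left out, and the class was led by the long noncoding RNAs Meg3 and Snhg11. Of 16 members tested, 1 was called, against 13.5% of all 13592 genes tested called in either direction and 6.52% called higher, and 5 had an unadjusted p under 0.05. This was Ifitm3, with 21.7, 21.05, 10.6 and 10.3 CPM in controls and 37.7, 104, 34.7 and 37.5 CPM in tumor replicates 1, 2, 3 and 5, a log2 fold change of 1.83 ± 0.41 (SE, adjusted p = 0.0104). Control and tumor levels did not overlap, but each tumor lay below its own free RNA, at 127, 433, 170.0 and 105 CPM in the same order, as did each control, and the call was lost without replicate 2. The part of free RNA in this difference was not tested. Bst2 had 1.41 ± 0.45 (SE, adjusted p = 0.0535), Isg15 0.72 ± 0.62 (SE, adjusted p = 0.489) and Stat2 0.33 ± 0.23 (SE, adjusted p = 0.388). Irf7 was not tested, at 1.302 to 3.37 CPM in controls and 0 to 4.67 CPM in tumors. Every tumor was above every control for 4 of 34 members, against 5.52% of genes. The median log2 fold change was 0.35 over the members and 0.02 over all genes. Scaled by UMI totals, 3 members were called and the genes called went from 886 higher and 951 lower to 1105 higher and 792 lower.

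**Figure D4:**
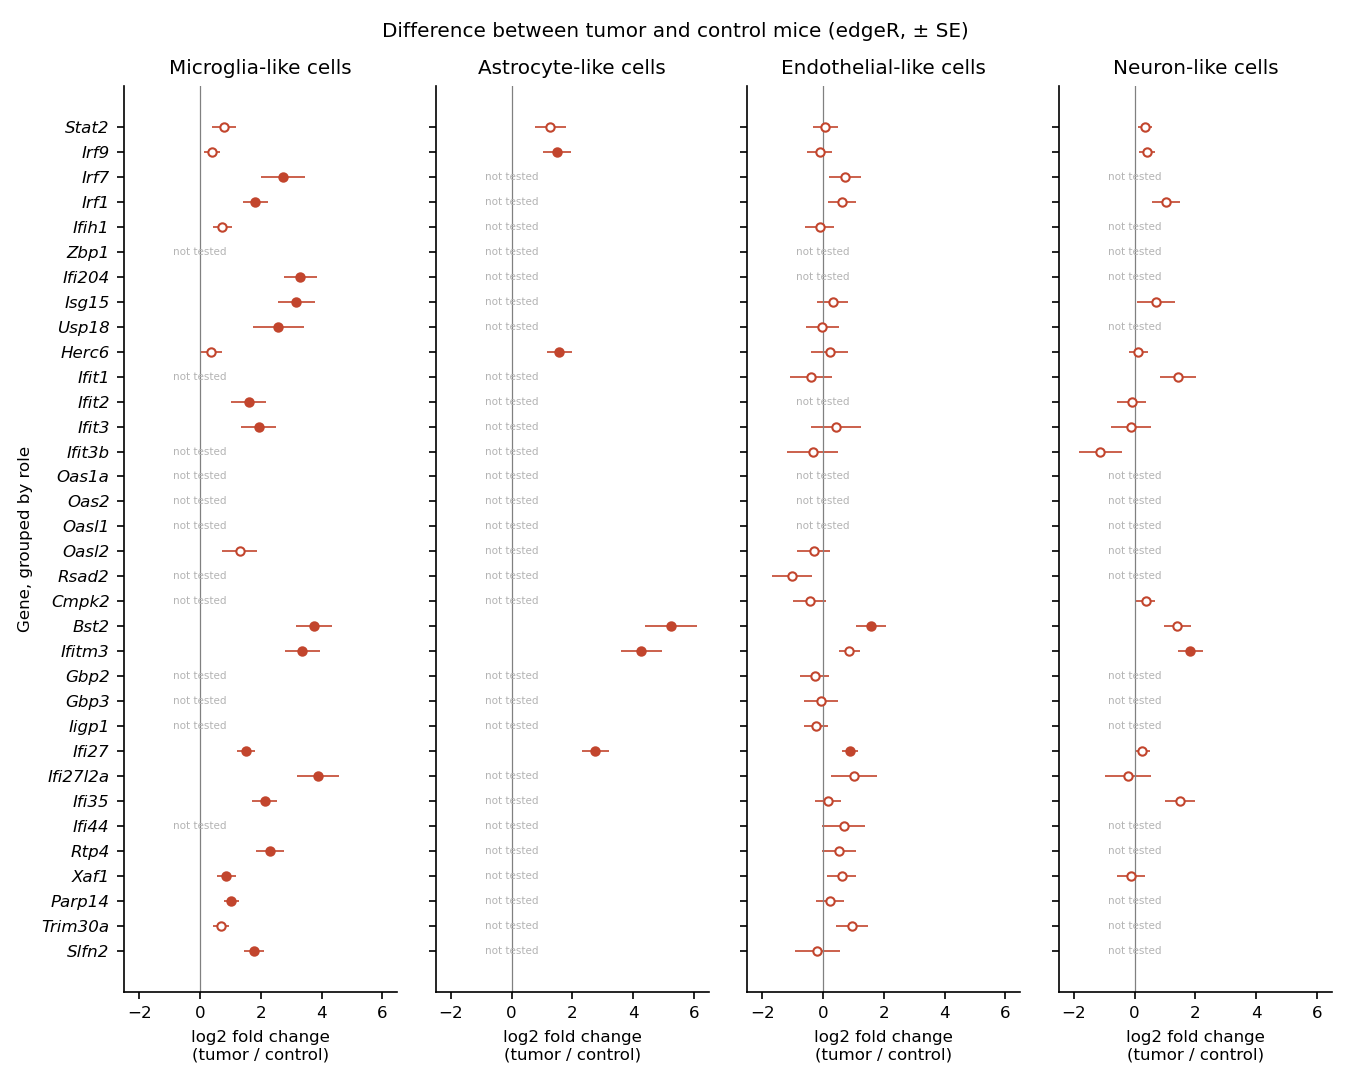
Log2 fold change (tumor against control, with bars of 1 SE) of each member in microglia-like, astrocyte-like, endothelial-like and neuron-like cells, filled where the adjusted p is under 0.05 and marked where the member was not tested. Filled points number 16 of 22 in microglia-like, 2 of 28 in endothelial-like and 1 of 16 in neuron-like cells, against 41.8%, 25% and 13.5% of all genes called, while the 5 of 6 in astrocyte-like cells, against 33.1%, were largely set by the filter. Of those tested, 15 in microglia-like, 12 in endothelial-like and 4 in neuron-like cells needed tumor libraries to pass the filter. The counts are therefore not compared between classes.

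Whether the tumor difference was unlike in 2 classes was tested by the interaction term in a fit with the mouse as a block. Between microglia-like and astrocyte-like cells, 1 of 17 members tested was called, against 7.92% of all 8032 genes called in either direction and 3.65% called higher in microglia-like cells. It was Ifi27l2a, whose difference was larger in microglia-like cells by 3.36 ± 0.74 (SE, adjusted p = 0.00545) on the log2 scale. In astrocyte-like cells it had 17.4, 16.5, 38.2 and 14.1 CPM in controls and 11.9, 6.59, 34.5, 200.4 and 9.99 CPM in tumors, and only replicate 4, at the level of its free RNA, stood out. The call was lost without control replicate 3 and after subtraction of free RNA. For Bst2 the difference of differences was -1.46 ± 0.80 (SE, adjusted p = 0.306), with an interval of -3.03 to 0.10, for Ifitm3 -0.40 ± 0.46 (SE, adjusted p = 0.681), for Isg15 0.39 ± 0.80 (SE, adjusted p = 0.836) and for Stat2 -0.35 ± 0.57 (SE, adjusted p = 0.779). None of these 4 passed. Irf7 was not tested there.

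Between microglia-like and endothelial-like cells, a comparison added after the data were seen, 6 of 31 members tested were called, against 3.24% of all 9458 genes in either direction and 1.5% with a larger difference in microglia-like cells. All 6 had the larger difference in microglia-like cells. They were Ifitm3 (log2 2.46 ± 0.42 SE, adjusted p = 0.00290), Ifi27l2a (2.93 ± 0.70), Isg15 (3.003 ± 0.74), Bst2 (1.99 ± 0.50), Ifi35 (2.11 ± 0.53) and Rsad2. The count ran from 1 to 14 as single libraries were left out, being 3, 1, 1 and 2 without control replicates 1 to 4, 14 without tumor replicate 3 and 3 without tumor replicate 5. The share of all genes called was 1.21, 1.25, 1.34 and 1.3% without control replicates 1 to 4. It was 5.24% without tumor replicate 3 and 2.61% without tumor replicate 5. Rsad2 had 3, 1, 0 and 0 UMIs in control microglia-like cells and did not pass the filter within that class, so it entered this fit through the samples where it is high. No size is read from its fold. After subtraction of free RNA 1 was left, Ifitm3, at 3.40 ± 0.60 (adjusted p = 0.0204). The tumor differences of Stat2 and Irf7 had an interaction of 0.78 ± 0.61 (SE, adjusted p = 0.618) and 2.05 ± 0.85 (SE, adjusted p = 0.246).

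Within tumors, microglia-like cells were compared with neural-progenitor-like cells of the same mice, a class led by the cell cycle genes Top2a, Cenpf and Mki67. Tumor replicate 1 had 19 such cells and was left out, leaving 4 mice. Of 30 members tested, 16 were higher in microglia-like cells, against 46.4% of all 10703 genes called in either direction and 23% called higher, and none was lower. Of the 30, 25 reached the level of the filter in fewer than 4 of the progenitor-like samples, so most passed it through the microglia-like cells. The count was thus largely set by the filter, and nothing is read from it. Ifi27l2a had 7.93, 3.34, 25.3 and 5.3998 CPM in the progenitor-like cells of replicates 2 to 5, against 422, 349, 179, 1092 and 348 CPM in the microglia-like cells of replicates 1 to 5, a log2 difference of 5.99 ± 0.25 (SE, adjusted p = 1.62e-06). Ifi204 had 2, 0, 2 and 0 UMIs in progenitor-like cells and passed the filter only through the microglia-like cells, so no fold is given for it. Trim30a had 4.76, 1.67, 14.5 and 9.45 CPM (log2 3.63 ± 0.41 SE, adjusted p = 0.000179) and Slfn2 2.11, 0, 14.02 and 1.35 CPM (log2 4.84 ± 0.57 SE, adjusted p = 0.000231). For these 4 every mouse had the higher level in microglia-like cells.

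For other members the order depended on the tumor. Isg15 had 180.2, 1.67, 291 and 16.2 CPM in the progenitor-like cells of replicates 2 to 5, above the microglia-like cells in replicates 2 and 4 and below them in 3 and 5, with a log2 difference of 0.55 ± 0.65 (SE, adjusted p = 0.522). Ifitm3 had 1072, 38.4, 687 and 109 CPM, again above in replicates 2 and 4 and below in 3 and 5 (log2 0.46 ± 0.51 SE, adjusted p = 0.494). Bst2, with 156, 3.34, 209 and 56.7 CPM, and Irf7, with 5.28, 0, 20.4 and 10.8 CPM, were higher in microglia-like cells of all 4 mice (log2 3.51 ± 0.50 SE, adjusted p = 0.000611, and log2 2.49 ± 0.38 SE, adjusted p = 0.00089). Stat2 had 17.4, 18.4, 26.2 and 10.8 CPM (log2 0.62 ± 0.26 SE, adjusted p = 0.0826).

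Transgene-bearing cells outside every class, 50, 599, 59, 3178 and 895 in the 5 tumors, had a summed member level of 793, 2483, 711, 2263 and 903 CPM. Replicates 2 and 4 stood above the other 3. Irf1 had 6.605, 129.6, 3.57, 64.7 and 82.2 CPM in these cells against 4.56, 38.96, 8.92, 46.5 and 27.7 CPM in free RNA, Gbp2 6.605, 51.4, 7.14, 21.8 and 35.8 against 6.84, 21.8, 10.1, 26.7 and 22.7 CPM and Ifitm3 205, 1308, 239, 696 and 157 against 127, 433, 170.0, 535 and 105 CPM. Irf1 exceeded free RNA in all but replicate 3 and Ifitm3 in every tumor. No member exceeded free RNA more than 2 times in every tumor in transgene-bearing or in progenitor-like cells. No control had a transgene-bearing cell. Macrophage-like cells were too few to compare, 5 to 10 per control and 4 to 24 per tumor, and had a summed member level of 3194, 3179.6, 2953 and 4044 CPM in controls and 7336, 4604, 6334, 4667 and 1339 CPM in tumors.

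**Figure D5:**
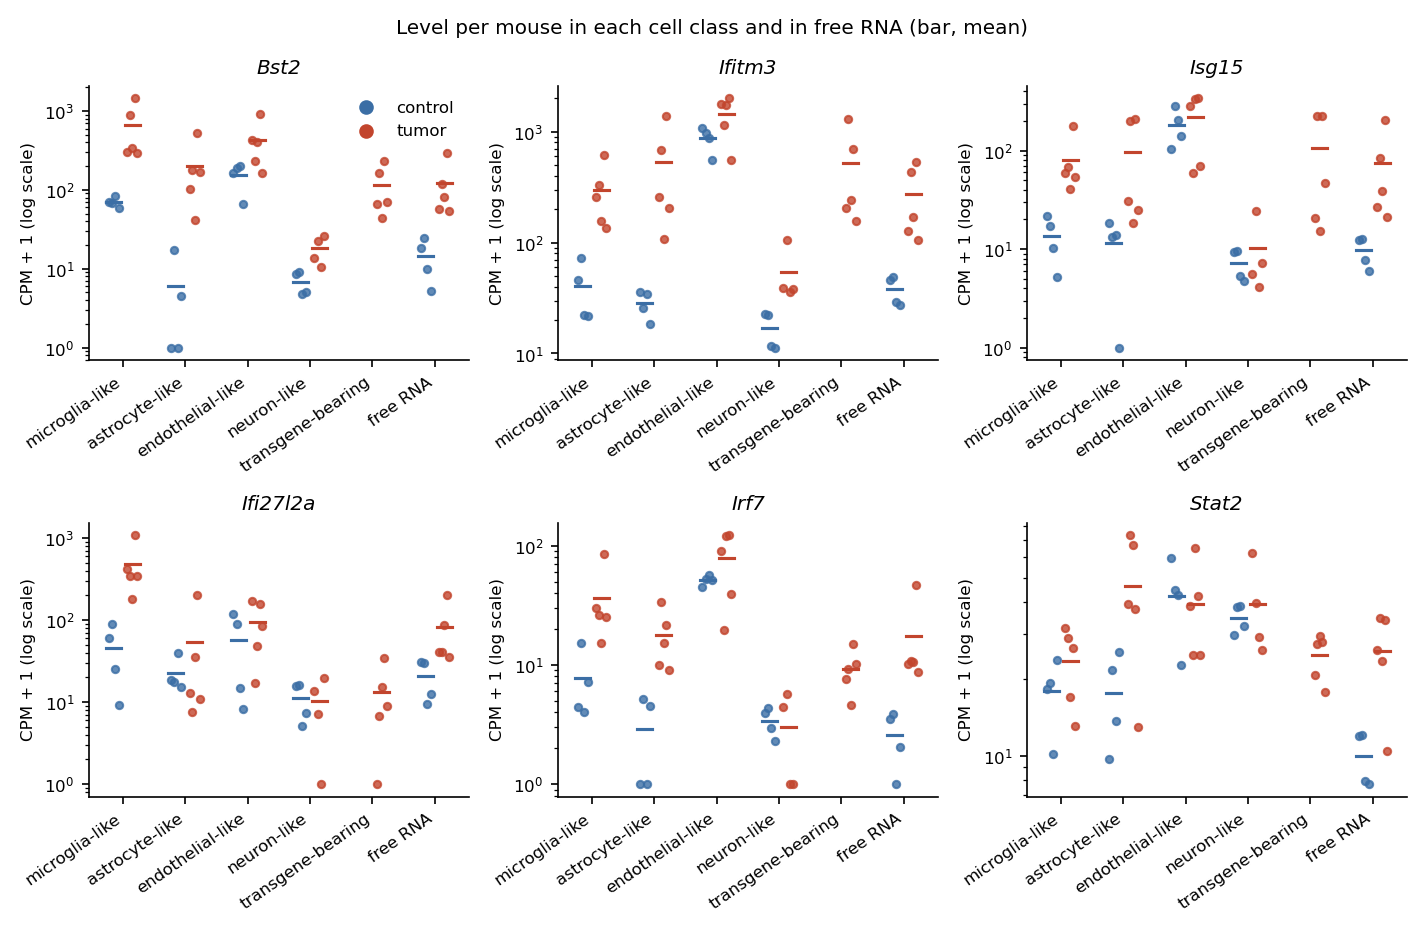
CPM plus 1 on a log axis of Bst2, Ifitm3, Isg15, Ifi27l2a, Irf7 and Stat2 by cell class and in free RNA, 1 point per mouse, with bars at group means. Control and tumor points of each gene overlap in endothelial-like cells, and in tumor replicate 4 free RNA of Isg15 (204 CPM) lies above the microglia-like cells (177 CPM).

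Of the other genes of the pathway, 63 of 64 on a fixed list had a row. Of the 13 ligands, 9 had no UMI in the 36321 kept cells, which allows each a share of up to 0.00826% of cells with a UMI, counting error only. The other 4 had 57 UMIs in all. Ifnb1, the first type I interferon a cell makes, had 0, 1, 0 and 0 UMIs in controls and 1, 6, 6, 19 and 1 in tumors, and Ifng, made by T and NK cells, had 0, 0, 0 and 0 UMIs in controls and 1, 0, 2, 5 and 1 in tumors. Both had more UMIs in tumors, 19 of the 33 tumor UMIs of Ifnb1 being in replicate 4, and neither was tested. Ifnk had 13 UMIs, all in controls, and Ifnab 1.

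All 5 receptor genes tested, of 6 on the list, rose over all cells, where 32.3% of all genes tested were called higher, and in microglia-like cells, where 19.2% were. In microglia-like cells Ifnar2 rose by 1.42 ± 0.20, Ifnar1 by 0.68 ± 0.21, Ifngr2 by 1.34 ± 0.22, Ifngr1 by 0.76 ± 0.28 and Il10rb by 1.46 ± 0.34 (log2, SE). In endothelial-like cells 2 of 5 rose, against 12.9% of all genes, Ifngr1 by 1.60 ± 0.36 and Ifngr2 by 1.37 ± 0.44. Of the kinases, Jak1, Jak2 and Tyk2 did not pass over all cells or in microglia-like cells. The transcription factor Stat3 rose over all cells by 2.03 ± 0.24 and had 0.56 ± 0.28 in microglia-like cells, which did not pass. Of 15 genes of nucleic acid sensing tested over all cells, 13 rose and 2 fell, against 61.6% of all genes called in either direction, Tbk1, a kinase that activates Irf3, by 0.95 ± 0.18 and the RNA-editing enzyme Adar by 1.33 ± 0.26. In microglia-like cells 5 of 12 rose and Adar fell, against 41.8% of all genes called in either direction. Under UMI totals, where the median of all genes lies lower, the receptors called in microglia-like cells were Ifnar2, Il10rb and Ifngr2, and of the sensing genes none was higher while Adar and Tlr3 were lower. Free RNA made up an estimated 54.97 to 66.1% of UMIs in control and 5.38 to 24.4% in tumor microglia-like cells. Values of the pathway genes after its subtraction are not given, and its part in their fold changes was not assessed.

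Of the inhibitors, Socs3, which blocks JAK kinases, rose by 6.14 ± 0.74 over all cells, 4.23 ± 0.53 in microglia-like and 5.01 ± 0.79 in endothelial-like cells. Ptpn6 and Socs1 rose too over all cells, and Pias1 fell by 0.39 ± 0.16. Of 18 further interferon-inducible genes, 17 rose over all cells and 10 of 12 tested rose in microglia-like cells, against 32.3% and 19.2% of all genes called higher. None of 11 was called in endothelial-like cells, against 25% of all genes in either direction. Under UMI totals 5 of the 12 in microglia-like cells were called higher (Sp100, Cxcl10, Lgals3bp, Tap1 and Eif2ak2), and in endothelial-like cells Gbp7 was called lower. Cxcl10, a chemokine that draws T cells, had 3.47, 2.03, 0 and 0 CPM in control and 10.2, 207, 109.7, 130.5 and 108 CPM in tumor microglia-like cells. No tumor overlapped a control, and tumor replicate 1 was the lowest tumor. The controls held 1, 1, 0 and 0 UMIs and the tumors 6, 539, 192, 272 and 134, so Cxcl10 passed the filter only through the tumors and no fold is given for it.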

How the data were processed

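Single cells of 5 tumors and 4 control brains were sequenced on the 10x 5' platform. The values used are UMI counts per gene and barcode, deposited by the authors in matrices whose header names Cell Ranger 6.1.2, while the submitters' processing notes name Cell Ranger 7 and mm10. The smallest barcode held 468 to 517 UMIs in the control matrices and 500 in each tumor matrix. For control replicate 4, fewer genes and barcodes are listed than the matrix has, and the mouse genes keep their order. Of each library the 10000 barcodes with the most UMIs were considered, or all 9001 in tumor replicate 3, and barcodes with 200 to 6000 genes were kept. Those of the high-mitochondrial component of a 2-component Gaussian mixture were removed, and then the highest Scrublet scores (0.8% per 1000 cells, scanpy 1.11.5). The mixture set no common limit. Barcodes it removed averaged 3.68 and 4.84% mitochondrial UMIs in tumor replicates 4 and 5, while kept cells of controls averaged 7.59 to 8.72%. A limit of 10% kept 4291, 9178 and 9139 cells in tumor replicates 3 to 5, where the mixture kept 1721, 5121 and 3645. Classes needed at least 50% of a marker list and 3 times its free RNA level, limits set after the data were seen. UMIs were summed per mouse and class and tested with edgeR 4.0.16 (quasi-likelihood, TMM scaling, filterByExpr, Benjamini-Hochberg adjustment over all genes tested), with DESeq2 1.42.0 as an alternative. The SE of an edgeR fit was derived as the absolute log2 fold change over the square root of the test's F statistic. It is not an output of the fit. The fits were tested on simulated data. Members, lists and named genes (the 8 called members with the smallest p in the sums over all cells and in microglia-like cells, and 4 elsewhere, with Isg15, Ifitm3, Bst2, Irf7 and Stat2) were chosen with earlier results of these data known. Further genes were named after their values were seen. A listed pathway gene is not reported here.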

Additional observations from a re-analysis of the deposited data

Results flagged for a closer look

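Of 80 sets of levels of the named genes in a class and group, 10 held 1 mouse far from the others by Dixon's test, and chance flags about 1 in 20 such sets. Tumor replicate 4 was the highest for Ifi27l2a (1092 CPM, the next tumor 422), Isg15 (177 CPM, the next 67.7) and Irf7 (83.5 CPM, the next 29.03) in microglia-like cells. It was also the highest for Ifi27 (1088 CPM, the next 435) and Bst2 (528 CPM, the next 178) in astrocyte-like cells, and for Rtp4 over all kept cells (47.6 CPM, the next 31.7). The free RNA of that library had the highest summed member level of all tumors. Its kept cells had a mean mitochondrial share of 2.16%, against 3.25 to 10.5% in the other tumors. They held a median of 6512 UMIs, against 2068 to 4523. The part of these in the values was not tested.

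Rtp4 in microglia-like cells was highest in tumor replicate 1 (73.4 CPM, the next 36.5), and Slfn2 in control replicate 1 (69.3 CPM, the next 33.7). In neuron-like cells tumor replicate 2 was highest for Ifitm3 (104 CPM, the next 37.7) and Isg15 (23.3 CPM, the next 6.25), both below the free RNA of that library.

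The tumor difference was unlike in 2 cell classes for 6 genes by edgeR's quasi-likelihood test of the interaction. Between microglia-like and astrocyte-like cells it was larger in the former for Ifi27l2a, by 3.36 on the log2 scale, with 7.92% of all genes called in either direction in that comparison. Between microglia-like and endothelial-like cells it was larger in the former for Rsad2 (by 4.89), Isg15 (3.003), Ifi27l2a (2.93), Ifitm3 (2.46), Ifi35 (2.11) and Bst2 (1.99), with 3.24% of all genes called. Rsad2 had 3, 1, 0 and 0 UMIs in control microglia-like cells and did not pass the filter within that class. It entered the fit with endothelial-like cells through the samples where it is high, so no size is read from its 4.89. After subtraction of free RNA, Ifitm3 was the 1 member called in the comparison with endothelial-like cells, and 0 were called in that with astrocyte-like cells. With single libraries left out, the members called ran from 1 to 14 with endothelial-like and from 0 to 2 with astrocyte-like cells. The share of all genes called ran from 1.21 to 5.24% and from 4.87 to 8.96% in the same order.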

How the results depend on the processing

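Over all kept cells 31 members were called with DESeq2, without a filter, with a mitochondrial limit of 10%, with doublets kept and under UMI totals. In these fits 66.4%, 45.8%, 64.1%, 61.6% and 58.7% of all genes were called in either direction. After subtraction of free RNA, 9 members were called in microglia-like cells, 3 in astrocyte-like, 0 in endothelial-like cells (0 of 30 tested), 0 for the interaction of microglia-like with astrocyte-like and 1 with endothelial-like cells, where 32.9%, 30.9%, 20.3%, 0.303% and 0.658% of all genes were called. In astrocyte-like cells 19 were called without a filter, where 15.3% of 18075 genes were called, and 3 with the mitochondrial limit (38.1% of 3007) or the stricter gate (32.9% of 4651), which left 3 to test. In neuron-like cells 3 were called with DESeq2, with doublets kept and under UMI totals, where 19.8%, 13.6% and 14% of all genes were called, and 2 without a filter (9.49% of 24584). The difference in the share of microglia-like cells was 23.2 percentage points for at least 3 genes, against 37.8 for at least 2. With a mitochondrial limit of 10%, no control had 20 endothelial-like cells and that fit was not run. The cause was not tested.

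With single libraries left out, counts of called members ran from 29 to 31 over all cells, 12 to 19 in microglia-like, 3 to 6 in astrocyte-like (3 without tumor replicate 1 or 3), 0 to 3 in endothelial-like (0 without control replicate 1, 2 or 4 or tumor replicate 4, and 1 without control replicate 3) and 0 to 2 in neuron-like cells (0 without tumor replicate 2 and 2 without control replicate 2). The share of all genes called ran from 50.9 to 68.8% over all cells, 31.7 to 45.1% in microglia-like and 23.2 to 37.8% in astrocyte-like cells. It ran from 13.4 to 32.2% in endothelial-like and 7.58 to 14.3% in neuron-like cells. Counts of members ran from 14 to 19 within tumors, 0 to 2 for the interaction with astrocyte-like cells (0 without control replicate 3 and 2 without tumor replicate 3) and 1 to 14 for that with endothelial-like cells. Shares of all genes called there were 35.4 to 44.9%, 4.87 to 8.96% and 1.21 to 5.24%. The share difference ran from 30.5 to 41.5 percentage points.

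With the replicate number as a block, 31 members were called over all cells, 19 in microglia-like, 6 in astrocyte-like, 3 in endothelial-like and 1 in neuron-like cells, where 50%, 37.9%, 27.4%, 24.2% and 4.42% of all genes were called. Same-numbered control and tumor mice had correlations of 0.0042 to 0.048 in their deviations from the group means, so the numbers do not pair the mice, and control replicate 4 alone correlated best with the tumor of its own number. Of 1083 values of single called members under an alternative, 1005 kept their direction and call, 78 lost the call and 0 reversed. Those over all cells, 186 under other settings and 273 with a library left out, lost none. For the interaction with endothelial-like cells, 5 lost the call and 1 kept it under other settings. With a library left out, 22 lost it and 32 kept it. In endothelial-like cells 2 lost it and 12 kept it, then 9 and 9. Fits that did not test a member, as for Herc6 in astrocyte-like cells, are not counted.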
